A study of Mus musculus with 2 samples.

Results

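The JAK-STAT and SOCS signalling genes examined here were *Jak1*, *Jak2*, *Stat3*, *Stat5a*, *Stat5b*, *Stat6*, *Cish*, *Socs2* and *Socs3*. All 9 were found by symbol among the 27998 genes of the count tables, and all are annotated as protein-coding. They were chosen as a pathway, not by their levels. Single-cell RNA-seq was performed on the mammary epithelium of adult FVB/NJ mice, an inbred laboratory strain without an engineered allele or a treatment. The animals were females of 10 weeks, and the cells of 4 mice were pooled for each library. The total epithelium library was sorted as Lin-CD24+ and held 3302 cells, and the Basal library was sorted as Lin-CD29hiCD24+ and held 4771 cells. The Lin- gate removes cells that carry TER119, CD31 or CD45, markers of red blood cells, endothelium and leukocytes. There was 1 library for each sort, so no difference below has a replicate check, mice cannot be told apart within a pool, and no p-value is given.

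Cytokines and hormones such as prolactin, growth hormone, the interleukin-6 family and the interferons bind receptors that have no kinase activity of their own. Janus kinases (JAKs) bound to those receptors phosphorylate STAT proteins, which then enter the nucleus and switch on target genes. Among these targets are the SOCS genes and *Cish*, whose protein products bind the receptors or kinases and shut the signal down. In the mammary gland, prolactin acting through STAT5 drives alveolar development and milk protein synthesis, whereas STAT3 is known for its part in the cell death of involution after weaning. The proteins are activated by phosphorylation, which RNA counts do not measure.

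STAT proteins such as STAT3 and STAT5 bind palindromic DNA elements of the form TTCNNNGAA, in which N is any base. Elements with another spacing were not searched for. This motif was searched for in RefSeq promoter sequences (build GRCm38.p6), each covering 250 bases before and 50 bases after a transcription start. Of the 9 genes, 8 were in that table, with 10 entries. *Socs2* had no entry and was not searched. Among the 8, only *Cish* and *Socs3* contained the motif. The motif was present in 8.30% of the 32851 promoters of all genes, and its letters read the same on both strands, so 1 search covers both. The feedback inhibitors *Cish* and *Socs3* are therefore shown here. In *Cish* there were 2 matches, starting at bases 1 and 12 of the annotated transcript. The stretch lies on the + strand at chr9:107296654-107296683, in a 5′ untranslated exon of 1 of the 5 *Cish* transcripts of GENCODE vM21, with the matches in capitals:
Cish site: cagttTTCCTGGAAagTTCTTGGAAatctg
In *Socs3* there was 1 match, starting 154 bases before the transcription start. The 250 bases before that start lie on the − strand at chr11:117969367-117969616, where GENCODE places an exon of 1 non-coding *Socs3* transcript but no coding sequence, and the match is again in capitals:
Socs3 upstream: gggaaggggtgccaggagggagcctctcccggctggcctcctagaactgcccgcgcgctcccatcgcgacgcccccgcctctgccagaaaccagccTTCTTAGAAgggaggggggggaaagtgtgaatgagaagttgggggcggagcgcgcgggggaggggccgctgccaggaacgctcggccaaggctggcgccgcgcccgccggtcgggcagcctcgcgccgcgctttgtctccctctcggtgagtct
These matches describe the sequence only. Binding was not measured in this series.

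The total epithelium cells were divided by raw counts. Basal cells had 10 or more counts of *Krt5*, *Krt14* and *Acta2* together. Mature luminal (ML) cells were those of the remainder with 10 or more counts of *Prlr*, *Stc2* and *Gpx3*, and luminal progenitor (LP) cells were other cells with 3 or more counts of the luminal keratins *Krt8*, *Krt18* and *Krt19*. This gave 1306 basal cells (39.6% of the library), 766 LP cells (23.2%) and 1133 ML cells (34.3%), and 97 cells (2.94%) fell in no class. Markers outside the rule followed the names. The summed level of 6 basal markers was 9456 CPM (counts scaled to a class total of 1000000) in basal cells, 83.9 in LP and 28.3 in ML cells. The 6 LP markers summed to 402, 10339 and 996 CPM and the 6 ML markers to 334, 764 and 7610 CPM in the same order. The LP class is defined by what it lacks, and 523 of its cells had 10 or more counts of the LP markers. A total of 26 cells met the basal and the ML rules, 727 basal cells also met the luminal keratin rule, 174 of the basal cells had 10 or more luminal keratin counts, and 123 cells had an ML sum of 7 to 12, close to the threshold. Of 6 immune markers, *Ptprc*, *Cd52* and *Cd3e* were at 0 in all classes, and the list summed to 44.3 CPM in basal cells, of which *Cd74* made up 40.0 CPM, 4.17 in LP, 1.69 in ML and 450.1 CPM in the unclassified cells, where all counts were from *Lyz2*. Fibroblast markers summed to 363 CPM in the basal class, 83.4 in LP and 1419 in ML, most of it *Dcn*, and to 8489 CPM in the unclassified cells. Only 12 ML cells had 3 or more counts of the collagen genes and *Lum*, and the members past 2-fold were the same genes without them. Median depth was 1838.5 counts per cell in basal cells, 2483.5 in LP cells and 3403 in the ML class, and 487 in the Basal library. Of the cell barcodes, 28 occurred in both libraries. The 6 basal markers outside the rule had ratios to their basal level of 0.00268 to 0.0888 in LP cells, the highest for *Oxtr*, and of 0.00240 to 0.0124 in ML cells.

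Levels are given as CPM, the summed counts of a class divided by its total, with exact 95% Poisson intervals in parentheses, and ratios carry exact 95% intervals for the ratio of counts. These intervals cover counting error only. Of the 9 genes, *Socs3* differed most between the classes. Its level was 11.7-fold higher in basal than in LP cells and 4.17-fold higher than in ML cells. *Stat5a* was 3.25-fold higher in ML than in basal cells, *Stat5b* was about equal in both luminal classes and 4.23-fold higher in LP than in basal cells, and *Cish* was 2.57-fold higher in basal than in ML cells. *Jak1*, *Jak2* and *Stat6* differed by less than 2-fold in every comparison of classes.

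Between LP and ML cells, 3 of the 9 genes differed by 2-fold or more, beside 27.0% of the 9030 genes with at least 50 counts over the 3 classes. These were *Stat5a*, *Socs2* and *Socs3*, each higher in ML cells, as were 16.4% of all genes tested. Between LP and basal cells, 3 of 9 passed 2-fold, beside 31.4% of all genes. *Stat5b* was higher in LP cells, as were 12.0% of all genes, while *Socs2* and *Socs3* were higher in basal cells, as were 19.4%. Between ML and basal cells, 4 of 9 passed, beside 35.9%, with *Stat5a* and *Stat5b* higher in ML cells (18.2% of all genes) and *Cish* and *Socs3* higher in basal cells (17.7%). These shares lie near the background, so the number of members past 2-fold does not set the pathway apart from other genes. The median ratio of the members was 1.05 for LP over ML, 0.819 for LP over basal and 0.821 for ML over basal, compared with 0.830, 0.879 and 1.04 for all genes tested. The scaling bore on the first comparison. The median log2 ratio of all genes between LP and ML was -0.27 by total counts and -0.02 after edgeR's TMM scaling, and 39.2% and 54.9% of the genes past 2-fold were then higher in LP cells. After TMM, *Cish* passed 2-fold between these classes and *Socs2* no longer did, and *Stat5a* and *Socs3* remained past it. When 20 counts of the rule genes were required of basal and ML cells, the ratio of LP to ML was 0.572 for *Socs3* and 0.516 for *Socs2*, and only *Stat5a* passed.

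**Figure D1:**
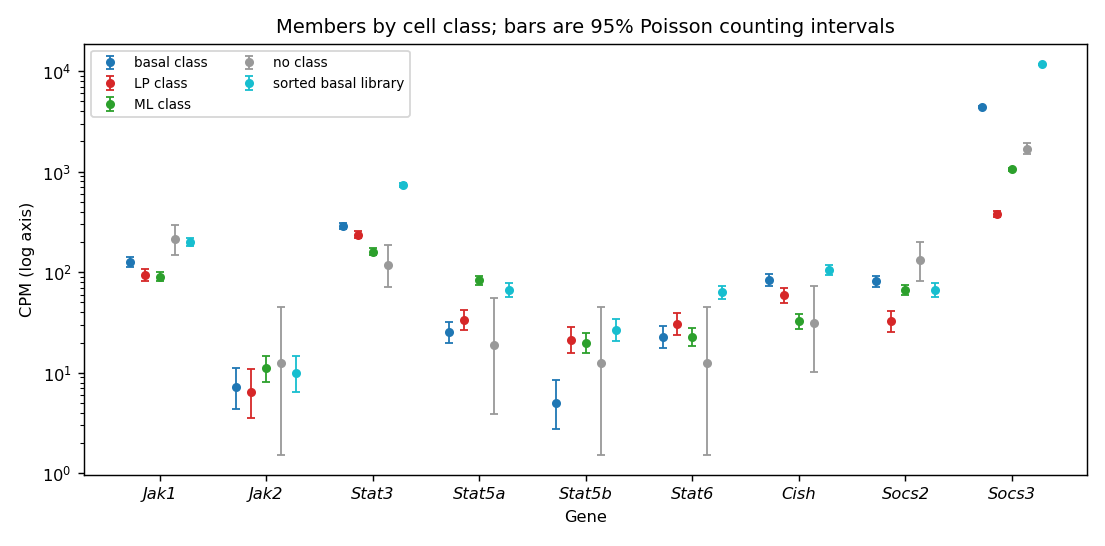
Level of each gene in CPM (log axis) in the basal, LP and ML classes and the unclassified cells of the total epithelium library and in all cells of the Basal library. Points are summed counts and bars are 95% Poisson counting intervals. *Socs3* spans 378 CPM in LP cells to 11753 CPM in the Basal library, while the points of *Jak1* lie between 89.8 and 213 CPM.

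**Figure D2:**
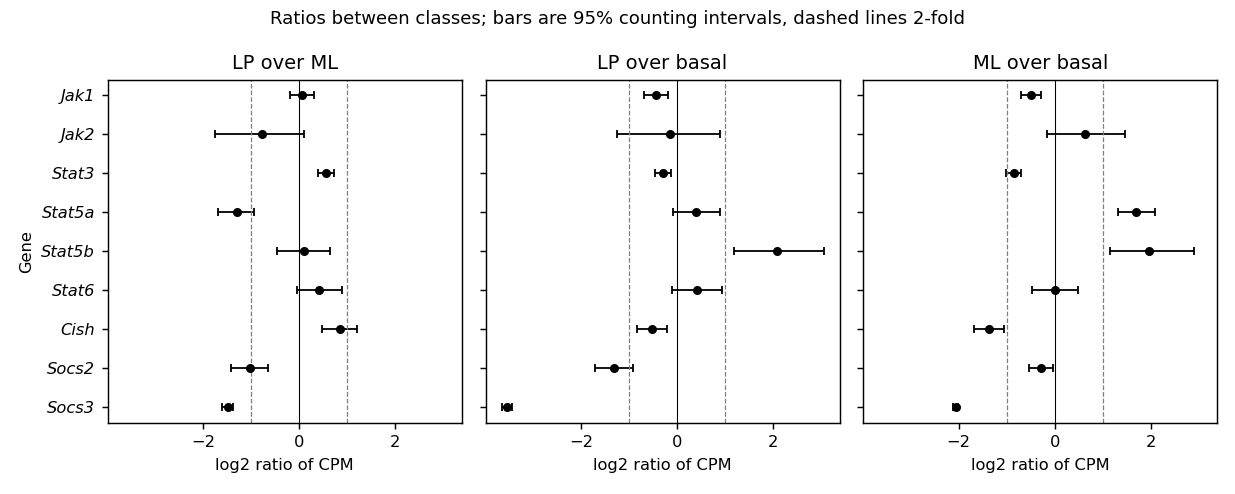
Log2 ratio of CPM for each gene in the 3 comparisons of classes, with bars for 95% counting intervals and dashed lines at 2-fold. *Socs3* lies at -1.48, -3.54 and -2.06, and the *Stat5b* interval lies wholly above 2-fold in both luminal classes over basal cells.

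*Jak1*, a kinase shared by interleukin-6 family, interferon and many interleukin receptors, measured 126 CPM (114 to 140) in basal cells, 94.0 (81.6 to 108) in LP cells and 89.8 (80.9 to 99.4) in ML cells. Basal cells were highest by 1.34-fold (1.13 to 1.61) over LP and 1.41-fold (1.21 to 1.63) over ML cells, and the luminal classes could not be told apart. The gene lies on chromosome 4, and *Gm12785* overlaps it on the same strand. *Jak2*, the kinase of the prolactin and growth hormone receptors, rested on 20 counts in the basal class, 14 in LP and 46 in ML. Its levels were 7.20 (4.40 to 11.1), 6.49 (3.55 to 10.9) and 11.1 CPM (8.15 to 14.8), with overlapping intervals throughout. At this depth no difference in *Jak2* was detectable, and the ML over LP ratio of 1.72 had an interval from 0.927 to 3.38. After each cell was thinned to 1000 counts, the share of cells with *Jak1* was 10.9% in the basal, 9.38% in the LP and 8.64% in the ML class.

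*Stat3*, the main transducer of the interleukin-6 family, measured 289 CPM (269 to 310) in basal cells, 237 (217 to 258) in LP cells and 160 (148 to 172) in ML cells. The order was the same in thinned cells, in which 25.4%, 20.7% and 15.2% had at least 1 count. Basal cells exceeded ML cells 1.81-fold (1.63 to 2.01) and LP cells exceeded ML cells 1.48-fold (1.32 to 1.67). *Stat6*, which transmits interleukin-4 and interleukin-13 signals, measured 22.7 CPM (17.4 to 29.0) in basal cells, 30.6 (23.6 to 38.9) in LP cells and 22.7 (18.4 to 27.8) in the ML class, and no pair of classes could be told apart. The ML over basal ratio was 1.002 (0.721 to 1.40), so a difference of 2-fold in either direction lay outside the counting interval.

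The paralogues *Stat5a* and *Stat5b*, which transmit prolactin and growth hormone signals, had different profiles. *Stat5a* measured 25.6 CPM (19.97 to 32.3) in basal cells, 33.8 (26.5 to 42.5) in LP cells and 83.2 (74.7 to 92.5) in ML cells. ML cells were 2.46-fold (1.91 to 3.21) above LP and 3.25-fold (2.51 to 4.26) above basal cells, and the intervals of LP and basal cells overlapped. *Stat5b* measured 5.04 CPM (2.76 to 8.46) in the basal class, 21.3 (15.6 to 28.4) in LP and 19.8 (15.8 to 24.6) in ML. LP cells were 4.23-fold (2.28 to 8.32) and ML cells 3.93-fold (2.22 to 7.51) above basal cells, where only 14 counts were recorded. Within the total epithelium library, *Stat5a* was thus higher in ML than in the other classes, and *Stat5b* higher in both luminal classes than in basal cells. The LP over basal ratio of *Stat5a* was 1.32, but 1.87 when basal cells that met another class rule were left out. Over all cells of the Basal library *Stat5b* was not below its luminal levels, but this depended on the cells taken, as given below. The share of thinned cells with *Stat5a* was 2.31%, 4.14% and 8.37% in basal, LP and ML cells, and that with *Stat5b* was 0.478%, 2.21% and 1.71%.

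*Stat5b*, *Stat5a* and *Stat3* are neighbours on chromosome 11 (GRCm38). *Stat5b* lies on the − strand from 100780731 to 100850724, followed by 8626 bases without either gene, *Stat5a* on the + strand from 100859351 to 100885169, and *Stat3* on the − strand from 100885098 to 100939540. The 3′ ends of *Stat5a* and *Stat3* overlap by 72 bases on opposite strands. The longest transcripts of *Stat5a* and *Stat5b* shared 608 stretches of 50 bases, 15.8% and 11.8% of those in each, but none of the 451 stretches in the last 500 bases, the end that a library of this kind reads. Despite their adjacency the 3 genes did not share a profile over the classes, with *Stat3* highest in basal, *Stat5a* in ML and *Stat5b* in luminal cells.

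*Cish*, a feedback inhibitor induced by STAT5, measured 83.9 CPM (73.5 to 95.4) in basal cells, 58.8 (49.0 to 70.0) in LP cells and 32.7 (27.4 to 38.7) in ML cells. All 3 intervals were separate, and *Cish* was lowest where *Stat5a* was highest. The ratio of basal to ML cells was 2.57 (2.07 to 3.20) and that of LP to ML cells 1.80 (1.40 to 2.31). Among thinned cells, *Cish* was seen in 7.81% of the basal class, 6.07% of LP and 2.88% of ML.

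*Socs2*, a suppressor of growth hormone signalling, measured 81.0 CPM (70.8 to 92.4) in basal cells, 32.9 (25.7 to 41.5) in LP cells and 66.5 (58.9 to 74.9) in ML cells. LP cells were lowest, 2.46-fold (1.88 to 3.26) below basal and 2.02-fold (1.55 to 2.66) below ML cells. Basal and ML cells differed by 1.22-fold (1.02 to 1.46), with 6.46% and 6.84% of thinned cells positive against 1.93% of LP cells. The unclassified cells had 131 CPM (81.3 to 201), resting on 21 counts.

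*Socs3*, the suppressor induced by STAT3 that acts on receptors of the interleukin-6 family, measured 4409 CPM (4331 to 4488) in basal cells, 378 (353 to 405) in LP cells and 1058 (1027 to 1090) in ML cells. Basal cells were 11.7-fold (10.9 to 12.5) above LP and 4.17-fold (4.03 to 4.31) above ML cells, and ML cells were 2.80-fold (2.60 to 3.02) above LP cells. A fold as large as that between basal and LP cells was found for 5.64% of the genes tested. The median basal cell had 8 *Socs3* counts (quartiles 5 and 13), the median ML cell 2 (0 and 5) and the median LP cell 0 (0 and 1). Without thinning, 97.6% of basal cells had a *Socs3* count, against 34.9% in the LP and 70.4% in the ML class.

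The difference in *Socs3* was also present cell by cell at equal depth. After thinning to 1000 counts, which left out 52 basal, 41 LP and 22 ML cells of lower depth, a *Socs3* count was found in 94.0% (92.6 to 95.3) of the basal class, 21.7% (18.7 to 24.8) of LP and 47.1% (44.1 to 50.1) of ML, with exact binomial intervals. For comparison, the basal marker *Cnn1*, which the class rule did not use, was detected in 88.0% of thinned basal cells, 1.93% of LP and 0.990% of ML cells. The ratio of LP to basal cells was 0.0857 for *Socs3*. Of the basal markers given above, only *Oxtr* was as high (0.0888), and the next highest was *Cxcl14* at 0.00917. The *Socs3* ratio of ML to basal cells was 0.240, above that of every basal marker. The part of free RNA in luminal *Socs3* was not tested. Thinned ML cells were spread, with 52.9% at 0 counts, 20.8% at 1 and 11.7% at 2, and 9.97% of basal cells had 10 or more.

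**Figure D3:**
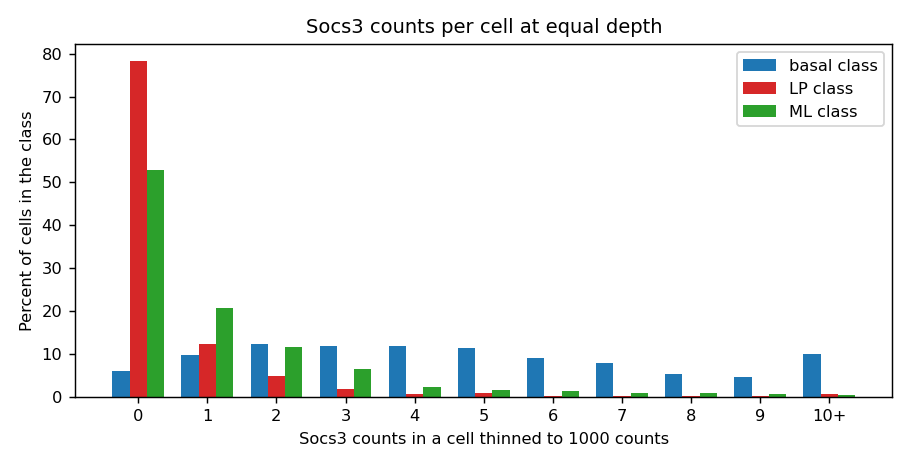
Percent of cells in each class by number of *Socs3* counts, after every cell was thinned to 1000 counts. LP cells are concentrated at 0 (78.3%), 52.9% of ML cells are at 0, and basal cells are spread over 1 to 10 or more counts with 5.98% at 0.

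Dissociation and sorting induce immediate early genes, and *Socs3* is itself rapidly inducible. The summed level of *Fos*, *Fosb*, *Jun*, *Egr1*, *Atf3* and *Ier2* was 16377 CPM in basal cells, 14781 in LP cells and 16211 in the ML class. Within each class, cells at or above the class median of these genes had more *Socs3* than those below it. The levels were 5364 and 3511 CPM in basal cells, 564 and 241 CPM in LP cells, and 1617 and 490 CPM in ML cells. These are ratios of 1.53, 2.34 and 3.30. Among cells below the median, the ratio of LP to basal cells was 0.0686 and that of ML to basal cells 0.140, so the basal excess of *Socs3* was larger there than in all cells. *Cish* was also higher in the upper cells of the basal class, 96.7 against 72.0 CPM, and of the ML class, 41.3 against 23.9 CPM. *Socs2* ran the other way in basal cells, 58.7 against 102 CPM. *Stat5a* was nearly the same in the upper and lower ML cells, at 83.1 and 83.4 CPM. The part of dissociation in these levels was not tested.

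ML cells were also divided at their median *Prlr* level, the prolactin receptor being one of the genes that define the class. Since the class was chosen on *Prlr* with *Stc2* and *Gpx3*, the values are a description. *Stat5a* measured 88.2 CPM in *Prlr*-high and 79.0 in *Prlr*-low ML cells and *Cish* 34.7 and 31.0 CPM, with ratios of 1.12 for each and intervals that include 1. *Socs3* measured 1127 and 999.6 CPM. *Socs2* measured 56.7 and 74.9 CPM, the only member lower in *Prlr*-high cells with an interval that excluded a ratio of 1.

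Luminal cells were further divided at 10 counts of the LP markers, which gave 523 LP cells and 108 ML cells at or above this level and 243 LP and 1025 ML cells below it. These are ranges of a count and depend on depth, since the median was 2865 counts in the upper and 1599 in the lower LP cells, and 5720.5 and 3243 in the upper and lower ML cells. *Stat5a*, *Socs2* and *Socs3* were lower in LP cells with many LP markers. *Stat5a* measured 25.8 CPM (18.8 to 34.7) in upper and 63.8 (42.7 to 91.7) in lower LP cells, and *Socs2* 25.8 (18.8 to 34.7) and 59.4 (39.2 to 86.4). *Socs3* measured 307 CPM (282 to 335) in the upper and 643 (571 to 721) in the lower LP cells. In ML cells the upper group was likewise lower in *Stat5a*, 47.9 against 89.6 CPM, and in *Socs3*, 688 against 1124 CPM, and higher in *Stat3*, 219 against 149 CPM. *Stat5b* showed no such gradient, with 19.95, 26.4, 20.7 and 19.7 CPM in upper LP, lower LP, upper ML and lower ML cells. *Cish* measured 57.5, 63.8, 41.5 and 31.1 CPM in the same order.

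**Figure D4:**
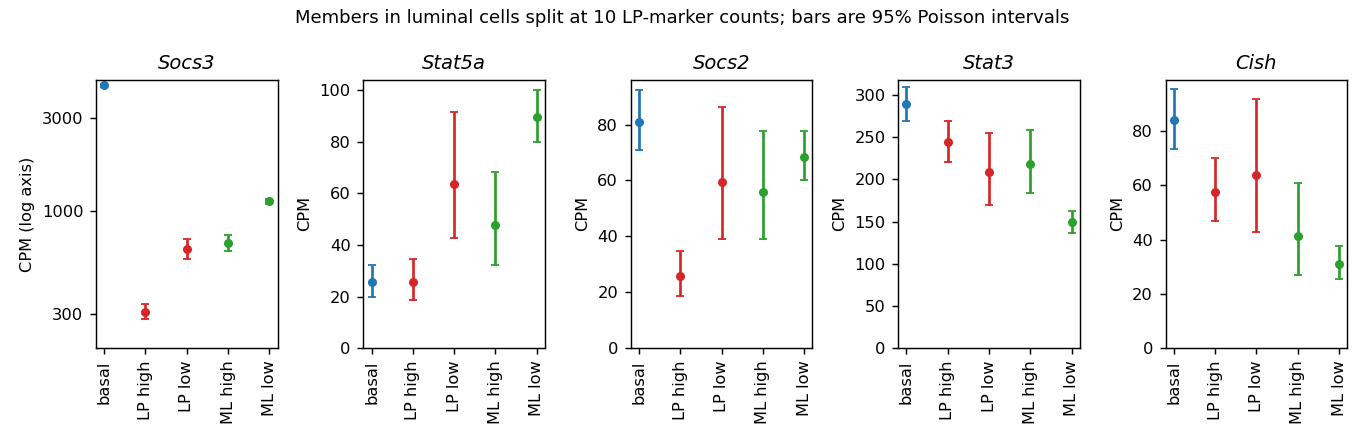
Levels of *Socs3* (log axis), *Stat5a*, *Socs2*, *Stat3* and *Cish* in CPM in basal cells and in LP and ML cells at or above (high) and below (low) 10 LP-marker counts, with 95% Poisson intervals. *Stat5a* is 25.8 CPM in LP high and 89.6 CPM in ML low cells, and the LP low and ML high cells lie between them.

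The profile over basal cells and these 4 luminal groups was compared with that of all 9030 genes, after scaling each profile to sum to 1. The genes closest to *Socs3* by Euclidean distance were *Adgrg1* (0.0213), *Prnp* (0.0325) and *Net1* (0.0388). *Adgrg1*, an adhesion G protein-coupled receptor gene, measured 97.3 CPM in basal cells, 15.4 and 6.45 CPM in the lower and upper LP cells, and 23.4 and 12.8 CPM in the lower and upper ML cells. Closest to *Stat5b* were *Ccnd1* (0.0371), *Exoc6* (0.0389) and *Odf2l* (0.0393). *Ccnd1*, the cyclin D1 gene, measured 31.0 CPM in basal cells and 96.1 to 136 CPM in the luminal groups. Closest to *Stat5a* were *Pck2* (0.0132), *Abcb8* (0.0327) and *Inppl1* (0.0336), and *Pck2*, a mitochondrial gluconeogenic enzyme gene, measured 32.8 CPM in basal and 105 CPM in lower ML cells. These distances describe 5 groups of 1 library.

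Upstream in the pathway, 22 ligand genes were examined, of which 11 had no count in any class, among them *Prl*, *Gh*, *Osm* and *Ifng*. Of the 5 with at least 50 counts, 3 were higher by 2-fold or more in LP than in ML cells and none the reverse, beside 10.6% and 16.4% of all genes. *Csf3*, encoding the granulocyte growth factor G-CSF, measured 38.5 CPM in the basal class, 927 in LP and 129 in ML, and *Lif*, an interleukin-6 family cytokine, 2.16, 34.7 and 6.77 CPM. LP cells thus had the highest *Lif* and *Csf3* and the lowest *Socs3*. *Clcf1*, another cytokine of that family, was highest in basal cells at 16.9 CPM, against 7.41 in LP and 3.63 in ML cells. *Ctf1*, also of that family, was lowest in basal cells and differed by less than 2-fold, with 39.3, 48.2 and 62.9 CPM in basal, LP and ML cells. *Il6* and *Il11*, of the same family, had under 50 counts and are given as values only. They measured 11.5, 0.463 and 2.18 CPM and 9.37, 2.78 and 0.484 CPM in basal, LP and ML cells. *Il6* was far higher in the unclassified cells, at 106 CPM. In the Basal library *Il6* had only 4 counts (1.61 CPM), so its basal level was not seen there, while *Il11* measured 8.04 CPM. *Il15* measured 2.52, 8.80 and 6.05 CPM in basal, LP and ML cells.

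Of 26 receptor genes, 17 had at least 50 counts, including *Prlr*, which defined the ML class and is left out of the counts. Of the other 16, 2 were higher by 2-fold or more in LP and 3 in ML cells when these were compared, beside 10.6% and 16.4% of all genes. Between LP and basal cells 2 were higher in LP and 4 in basal cells, beside 12.0% and 19.4%, and between ML and basal cells 1 was higher in ML and 4 in basal cells, beside 18.2% and 17.7%. *Lifr*, the receptor for LIF, measured 140 CPM in basal cells, 14.4 in LP cells and 47.2 in the ML class, the same order as *Socs3* and the opposite of *Lif*. *Il6st*, the signalling subunit shared by the interleukin-6 family, measured 60.5, 33.8 and 39.2 CPM, and *Osmr*, the oncostatin M receptor, 95.5, 43.5 and 27.8 CPM. *Cntfr*, for ciliary neurotrophic factor, was low in LP cells, with 5.10 CPM against 37.5 in basal and 43.8 in ML cells. *Il6ra*, which binds interleukin-6, was highest in LP cells at 27.3 CPM, against 6.48 in basal and 9.19 in ML cells. *Ghr*, the growth hormone receptor, measured 47.2, 30.1 and 18.1 CPM. *Il6st*, *Osmr* and *Ghr* were added to the named receptors after their values were seen, and all 3 were highest in basal cells. Other receptors were not. *Il13ra1* was highest in ML cells (49.3, 53.7 and 175 CPM in basal, LP and ML cells). *Il15ra* was highest in LP cells (14.4, 41.7 and 12.6 CPM). *Csf3r*, the receptor for G-CSF, had 0 counts in all 3 classes.

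**Figure D5:**
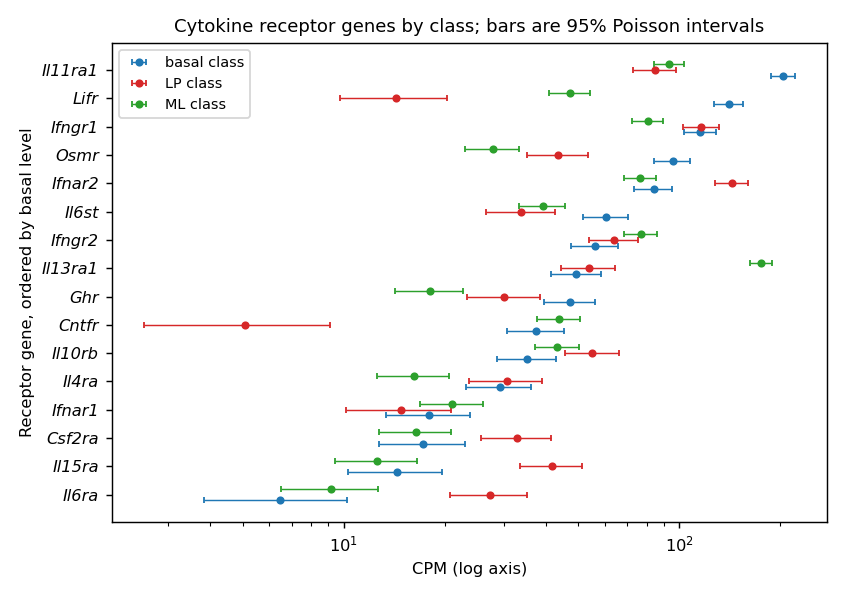
Levels of the 16 receptor genes with at least 50 counts other than *Prlr* in the basal, LP and ML classes, in CPM on a log axis with 95% Poisson intervals, ordered by the basal level. *Lifr* and *Cntfr* have their lowest points in LP cells, at 14.4 and 5.10 CPM, and *Il6ra* its highest, at 27.3 CPM.

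Among the other kinases, *Jak3* measured 2.88 CPM in basal cells, 23.6 in LP cells and 17.2 in the ML class, and was more than 2-fold higher in each luminal class than in basal cells, as *Stat5b* was. *Tyk2*, *Stat2* and *Stat4* had too few counts to be compared. Of the 5 other SOCS genes, *Socs1*, a suppressor of interferon signalling, was higher in basal cells at 118 CPM, against 16.7 in LP and 20.6 in ML cells. *Socs7* was also higher in basal cells, at 11.9 against 4.63 and 3.39 CPM, so that 2 of the 5 were higher there than in each luminal class, beside 19.4% of all genes against LP and 17.7% against ML cells, while *Socs4*, *Socs5* and *Socs6* differed by less than 2-fold. Of 9 other negative regulators, 3 were higher in ML than in LP cells by 2-fold or more, beside 16.4% of all genes, and none the reverse. These were the tyrosine phosphatase genes *Ptpn1* (126, 92.2 and 313 CPM in basal, LP and ML cells) and *Ptpn6* (10.1, 7.88 and 31.2 CPM), and *Pias3*, an inhibitor of STAT3, with 9.73, 2.78 and 11.1 CPM. *Sh2b3*, an adaptor that restrains JAK2, measured 11.2, 3.71 and 5.81 CPM.

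Genes known as targets of the STATs ran with the STAT genes in some comparisons of classes and against them in others. Of 9 measured prolactin and STAT5 targets, 6 were higher by 2-fold or more in LP than in ML cells and 1 the reverse, beside 10.6% and 16.4% of all genes. *Stat5a* was higher in ML cells in that comparison. Against basal cells, 8 of these targets were higher in LP cells and 0 lower, beside 12.0% and 19.4% of all genes. In ML cells 5 were higher than in basal cells and 1 lower, beside 18.2% and 17.7%. *Stat5b* was likewise higher in both luminal classes than in basal cells of this library, and *Stat5a* in ML cells. Over all cells of the Basal library *Stat5b* was not below its luminal levels, as given below. The casein genes, encoding milk proteins, led this group. *Csn2* measured 179 CPM in basal cells, 5416 in LP cells and 329 in the ML class, and *Csn1s2a* 230, 8166 and 608 CPM. *Csn1s1* measured 90.8, 3162 and 173 CPM. *Csn3* (250, 6649 and 619 CPM) and *Elf5* are also LP markers. The gene higher in ML than in LP cells was *Tnfsf11*, encoding the paracrine signal RANKL, with 0.720, 2.32 and 16.9 CPM. Of 7 measured STAT3 targets, 4 were higher in LP than in ML cells, beside 10.6% of all genes. A total of 5 were higher in basal than in ML cells, beside 17.7%, and *Stat3* too was lowest in ML cells. *Myc* measured 714, 307 and 132 CPM in basal, LP and ML cells and *Igfbp5* 1015, 1233 and 165 CPM. *Pim1* measured 44.7, 82.0 and 18.1 CPM and *Mcl1* 138, 202 and 50.8 CPM. ML cells were lowest in these 4 genes, which were chosen for their folds, and also in *Junb*, but *Bcl3* was highest in ML cells at 176 CPM and *Fos* was lowest in LP cells at 5536 CPM. Of 7 measured interferon targets, 3 were higher in ML than in LP cells, beside 16.4% of all genes. *Bst2* measured 8.28, 31.0 and 101 CPM, *Usp18* 1.44, 4.17 and 26.9 CPM and *Oasl2* 3.24, 4.17 and 10.2 CPM, whereas *Irf1* was highest in basal cells, at 256 CPM against 54.2 and 66.3. *Elf5*, *Tnfsf11*, *Junb*, *Bcl3* and *Fos* were named after their values were seen.

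The Basal library was compared with the basal class of the total epithelium library, as a second set of basal cells. Its basal markers summed to 8303 CPM and its LP and ML markers to 136 and 35.4 CPM, and 1758 of its 4771 cells met the basal rule at their lower depth. Of the 9 genes, 5 were higher by 2-fold or more in the Basal library and none lower, beside 28.2% of 8174 genes higher and 44.6% past 2-fold in either direction. *Socs3* measured 11753 CPM (11619 to 11889) against 4409, *Stat3* 738 (704 to 772) against 289, *Stat5a* 67.1 (57.3 to 78.1) against 25.6, *Stat5b* 26.9 (20.9 to 34.2) against 5.04 and *Stat6* 63.1 (53.6 to 73.8) against 22.7. *Cish* (106 against 83.9 CPM), *Jak1* (201 against 126), *Jak2* (10.0 against 7.20) and *Socs2* (67.1 against 81.0) stayed under 2-fold. The median ratio over all genes tested was 1.36, and that over the 8 members tested was 2.59. The libraries differ in the sort, the mice and the depth, with medians of 487 and 1838.5 counts per cell, and immediate early genes summed to 22302 CPM in the Basal library against 16377 in the basal class. These cannot be told apart with 1 library of each. The ratio between the libraries was 5.34 for *Stat5b* over all cells and 3.14 when the Basal library was limited to cells that met the basal rule, and the same 5 genes passed 2-fold there. *Socs3* exceeded its levels in the luminal classes in both libraries. *Stat5b*, at 26.9 CPM over all cells of the Basal library, was not below its levels of 21.3 in LP and 19.8 in ML cells. For cells of that library that met the basal rule, the ratio of 3.14 to the basal class was lower than the luminal ratios. These were 4.23 (2.28 to 8.32) for LP and 3.93 (2.22 to 7.51) for ML cells, with intervals that hold 3.14. Whether *Stat5b* was lower in the Basal library than in luminal cells thus depended on the cells taken. *Stat5a*, at 67.1 CPM in the Basal library, lay between its LP level of 33.8 and its ML level of 83.2.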

How the data were processed

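Single-cell counts were analysed for 2 libraries, made with the 10X Chromium Single Cell 3′ protocol and sequenced on an Illumina NextSeq 500. The authors ran Cell Ranger, for which the submitters' processing notes name version 1.2.1 and build mm10 and the study's methods a later version, and deposited raw counts of unique molecules per gene and cell. Reads that match several genes equally are not counted, and the choice of cell barcodes cannot be repeated. The Basal library held 2488704 counts (137 to 1946 per cell) and the total epithelium library 9227651 (802 to 12967 per cell). All deposited cells were used and no doublet caller was run. Cells that met several class rules took the first of basal, ML and LP, and were left out in an alternative.

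Counts were summed by class and divided by the class total. Intervals were exact Poisson, binomial (Clopper-Pearson) or conditional on the summed counts of both classes, at 95%, and cover counting error only. With 1 library per group no test was made, and genes past 2-fold were counted among those with at least 50 counts. The ratio script was tested on simulated data. Named genes were the 9 members, up to 4 genes of each other list with the largest fold past 2-fold, and the 3 nearest profiles for each of 3 members. Members, lists, rules and alternatives were chosen with earlier results of these data known. Python 3.11.15, numpy 2.4.6, scipy 1.17.1, pandas 2.3.3, matplotlib 3.10.9 and, for TMM, edgeR 4.0.16 in R 4.3.3 were used. Gene positions came from GENCODE vM21 by Ensembl ID and promoter sequences from RefSeq (GRCm38.p6). Of 8 listed STAT3 targets, 7 were found by symbol. Another gene of the lists is not reported here.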

Additional observations from a re-analysis of the deposited data

How the results depend on the processing

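No paired analysis was possible because there was 1 library per group. Over 432 alternative values of the class ratios, 396 stayed within the counting interval, 36 moved outside it and 0 changed direction past 2-fold. Alternatives that changed only the basal, only the LP or only the ML cells could not move the ratio of the other classes. Those unchanged values are counted among the 396. Between LP and basal cells *Stat5b*, *Socs2* and *Socs3* passed 2-fold under every alternative run, and between ML and basal cells so did *Stat5a*, *Stat5b*, *Cish* and *Socs3*. The basal to LP ratio of *Socs3* ranged from 7.18 to 14.6. The LP to ML comparison was less stable. With basal and ML cells required to have 20 counts of their rule genes, 1 member (*Stat5a*) passed 2-fold instead of 3, the *Socs3* ratio of LP to ML rose from 0.357 to 0.572, and that of *Socs2* was 0.516. Under the other alternatives 2 to 4 members passed. *Socs2* was no longer among them with per-cell means, median ratio or TMM scaling, 10 keratin counts for LP cells, or cells low in immediate early genes. *Cish* joined with per-cell means, thinning, both scalings and those cells, and *Stat5a* fell just short after thinning, at a ratio of 0.5004. *Jak2*, at an LP to ML ratio of 0.583, passed 2-fold with 5 counts for the class rules (0.447), without the 5% deepest cells (0.436) and in cells low in immediate early genes (0.462), an alternative chosen after seeing the data in which it also passed between ML and basal cells, and was at 0.946 with 20 counts. For all genes, 2440, 2835 and 3241 passed 2-fold in LP against ML, LP against basal and ML against basal cells. Lowering the minimum to 10 counts gave 3972, 4553 and 5039, no minimum beyond 1 count gave 6165, 6977 and 7797, and thinning to 1000 counts gave 1867 in LP against basal cells, where 6165 genes were tested instead of 9030. Between libraries, the same 5 members passed 2-fold under all 3 alternatives. Low counts limit *Jak2* and *Stat5b*, which rest on 20 and 14 counts in basal cells.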
